A study of Mus musculus with 18 samples.

Results

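The comparison of cisplatin with its vehicle in poly(A) mRNA sequencing rested on 6 of the 18 libraries of the series, 3 from mouse embryonic stem (ES) cells exposed to 2.5 µM cisplatin and 3 from cells given DMSO alone. They were chosen by library type and treatment, and the other 12 libraries, made by RNAome or small RNA sequencing, were not used. All 6 samples were C57BL/6 ES cells deficient in HPRT, a purine salvage enzyme, at passages 19 to 22, so the controls carry the same deficiency as the treated cells. The cells had been kept on feeder cells and moved to gelatin before exposure. Libraries were made with the TruSeq mRNA kit, which selects polyadenylated RNA. How long the cells were exposed is not stated in these sources. Libraries are named by the sample codes in their titles, and values are always listed in the order cisplatin 8.3.3, 8.4.3 and 8.5.3, then control 8.4.16, 8.5.16 and 8.6.16.

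Cisplatin binds neighbouring purines in DNA and forms crosslinks within and between strands. Such lesions lie on the template, where they are known to block DNA polymerases and RNA polymerase II, and they activate the ATM, ATR and p53 damage response. ES cells are known for a short G1 phase, for high levels of p53 protein, and for differentiation or apoptosis as responses to damage. This background is not a result of these libraries.

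Counts per library in the deposited expression table ranged from 20365963 to 31604098. RefSeq rows took 59.7% to 59.9% of the counts in the cisplatin libraries and 60.4% to 61.1% in the controls, and the part of this difference in the results below was not tested. Of 14797 genes in the table, 14083 passed the filter on low counts and were tested, and 714 were not. Levels are in CPM, counts scaled to a common library size, scaled to the tested genes of each library. They are not divided by transcript length and are compared only within a gene. A gene is called higher or lower where edgeR's quasi-likelihood test gave a Benjamini-Hochberg adjusted p under 0.05 over all 14083 genes. Hprt itself was near the detection limit in every library, at 1.03, 1.16 and 1.17 CPM with cisplatin and 0.764, 1.12 and 0.909 CPM in the controls, which overlap. The first principal component, 69.1% of the variance, separated the treatments, and control 8.6.16 stood apart from the other controls on the second (11.5%). The labels do not say whether each library is a culture of its own, and p-values therefore reflect the spread among these libraries only, part of which may be technical.

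Cisplatin moved a large part of the transcriptome. It left 2536 genes higher, which is 18.0% of the genes tested, and 2700 lower, which is 19.2%. The 2 sets differed in size of change: the median log2 fold change was 0.62 among the higher genes and −0.33 among the lower ones. Changes of 2-fold or more were found in 688 of the higher and 107 of the lower genes, and 4-fold or more in 149 higher genes and in none of the lower ones. Against a minimum change of 1.5-fold (edgeR's glmTreat), 515 genes (3.66%) were higher and 138 (0.98%) lower. In bulk RNA, fewer cells of a type and less RNA per cell cannot be told apart.

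The direction followed the level of the gene. Higher genes had a median of 13.2 CPM over the 6 libraries, lower genes 76.0 CPM, and all tested genes 24.7 CPM. Among genes at 1 to 5 CPM, 23.8% were higher and 3.89% lower, while among genes at 500 CPM or more, 1.51% were higher and 49.4% lower. Summed over genes, the higher set gained 23631 CPM and the lower set changed by −85792 CPM. CPM values here use TMM library sizes, so they do not add up to the same total in each library. The TMM factors were 1.0324 to 1.0354 in the cisplatin libraries and 0.964 to 0.97 in the controls. Both sums, and the balance between both directions, therefore depend on the scaling. With upper quartile scaling 3190 genes were higher and 2077 lower, so the higher share of calls went from 48.4% to 60.6%. Of the 264 genes that rose 2-fold or more from a control mean under 1 CPM, the fitted fold depends on few control counts.

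**Figure D1:**
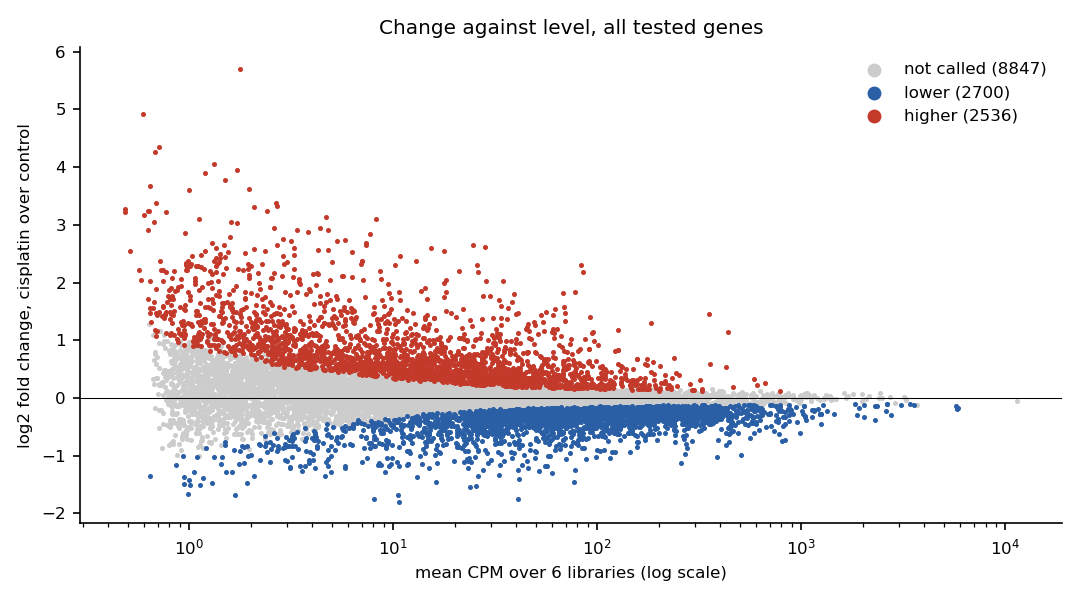
Log2 fold change of cisplatin over control (y axis) against the mean CPM over 6 libraries (x axis, log scale) for the 14083 tested genes, 1 point a gene, red for the 2536 higher and blue for the 2700 lower genes. Red points lie mostly at low levels and reach past 4-fold, while blue points lie mostly at high levels and stay closer to 0.

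The largest increases among genes with a mean of at least 10 CPM and no overlap between groups were led by Trp73, which encodes the p53 relative p73. It read 33.9, 45.3 and 48.4 CPM with cisplatin and 8.41, 7.53 and 4.63 CPM in the controls, a log2 fold change of 2.64 (SE 0.17, adjusted p = 1.58e-07). Next came Tap1 at 2.59, Zfp750, a zinc finger factor of epidermal differentiation, at 2.55, Mab21l3 at 2.47, Hyal1, a hyaluronidase, at 2.38, and Parp10, a mono-ADP-ribosyltransferase, at 2.31. Parp10 was among the most even, at 16.2, 17.5 and 17.3 CPM against 3.06, 3.83 and 3.22 CPM. Plk2, Synm, Azin2, Btg2, Ephx1, Slc4a11, Ddit4l, Rtkn and Nudt18 completed the 15, with log2 fold changes of at least 1.90. Ephx1 encodes the microsomal epoxide hydrolase, and Slc4a11 a membrane transporter. None of the 15 genes spanned 100 kb or more of the genome, and 10 spanned less than 20 kb.

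The 15 largest decreases were of another kind. Klf12, a Krüppel-like repressor, read 5.72, 4.78 and 3.61 CPM with cisplatin and 18.0, 18.3 and 13.4 CPM in the controls (log2 fold change −1.80, SE 0.17, adjusted p = 3.03e-06). Ptprg, a receptor tyrosine phosphatase, read 20, 19.7 and 16.6 CPM against 63.0, 68.5 and 58.2 CPM (−1.75, SE 0.09, adjusted p = 5.99e-08). Tenm4 (−1.69), Bnc2 (−1.55), Camk1d (−1.52), Gli2 (−1.46), Cdkal1, Arid1b (−1.4), Dip2c, Arl15, Ntn1 (−1.30), Ext1, Msi2 and Pard3 were among the others. In each of these genes all 3 cisplatin libraries lay below all 3 controls. Every gene of the 15 spanned 100 kb or more and 14 spanned 200 kb or more, with a median of 402.5 kb. Ptprg lies at chr14:12386046-13074555 and Tenm4 at chr7:103319754-104059603 (mm9), spans of 688.5 and 739.8 kb.

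**Figure D2:**
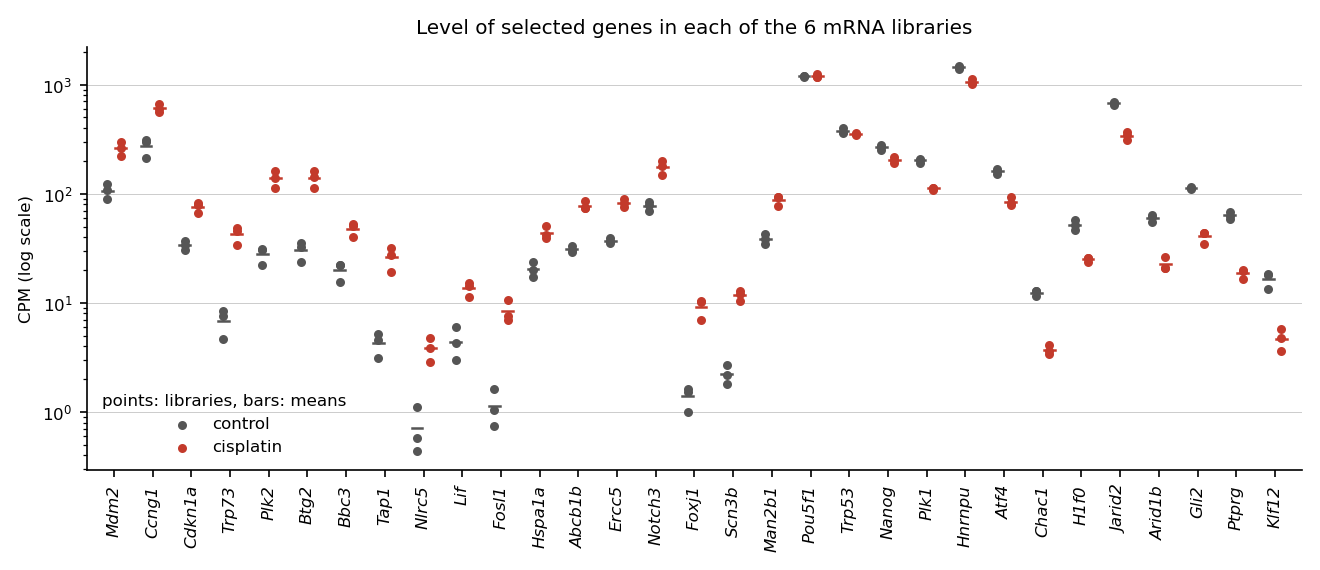
CPM (y axis, log scale) of selected genes in each of the 3 control (grey) and 3 cisplatin (red) libraries, with bars at the group means. The groups are separate for the genes drawn except Pou5f1, where they overlap.

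That pattern held across the annotation. Of 13080 tested genes with a position in GENCODE vM1 (mm9), the share called lower went from 7.7% of genes spanning under 5 kb, through 10% at 10 to 20 kb, 33.5% at 50 to 100 kb and 46.3% at 100 to 200 kb, to 61.5% of genes spanning 200 kb or more (320 of 520). The share called higher ran the other way, from 23.2% at 10 to 20 kb to 3.5% at 200 kb or more. Median log2 fold changes were 0.08 under 5 kb, 0.02 at 20 to 50 kb, −0.25 at 100 to 200 kb and −0.54 at 200 kb or more, with 0.01 over all genes with a position. The 520 longest genes together read a mean of 15500 CPM in the controls and 10200 CPM with cisplatin.

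Each cisplatin library showed the gradient by itself. In genes of 200 kb or more with a mean of at least 1 CPM, the median log2 ratio to the controls was −0.51, −0.46 and −0.58 in the 3 cisplatin libraries. Each control set against the other controls gave 0.04, 0.11 and −0.14. Control 8.6.16 leaned the same way as the treated libraries, by less than any of them. The gradient was present above and below the median level: at 200 kb or more, 91.6% of genes above the median level (142 of 155) were lower, with a median of −0.62, and 48.8% of those below it, with a median of −0.48. As a description across genes, which are not independent, Spearman's rank correlation with the log2 fold change was −0.32 for span, −0.20 for summed exon length and −0.41 for mean CPM.

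**Figure D3:**
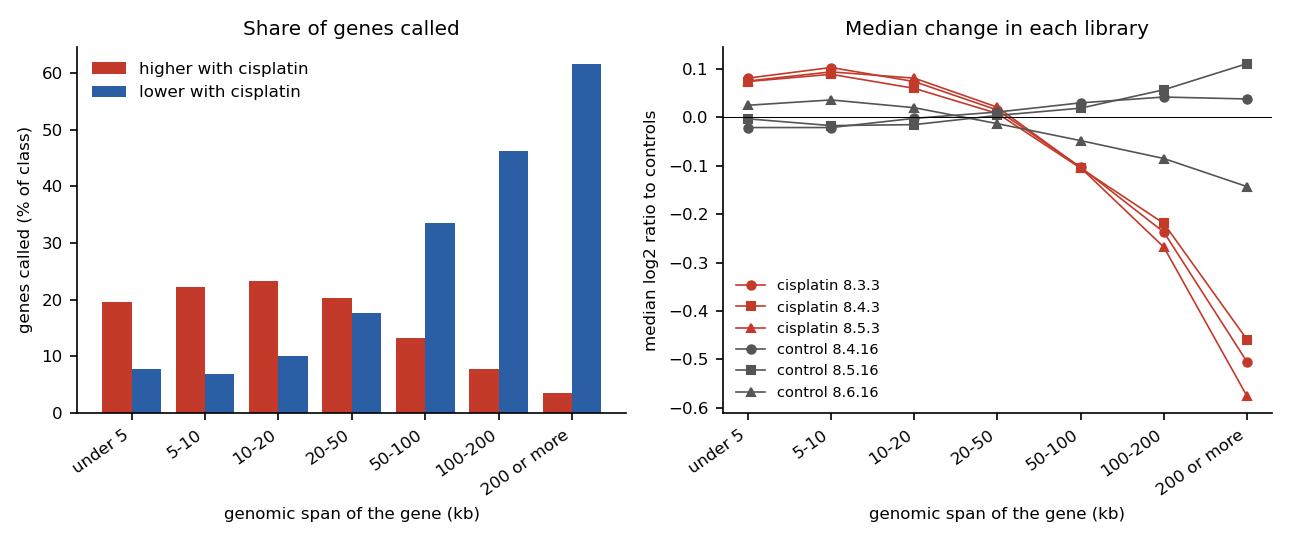
Left, percent of tested genes called higher (red) and lower (blue) in 7 classes of genomic span in kb. Right, median log2 ratio of each library to the controls in the same classes (red, cisplatin; grey, each control against the other controls), where the cisplatin libraries fall to between −0.46 and −0.58 in the longest class.

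A small number of long genes went against the gradient. Of the 520 genes of 200 kb or more, 18 rose. Plekhg1 read 47.5, 53.3 and 49.3 CPM with cisplatin against 33.6, 29.4 and 21.4 CPM in the controls (log2 fold change 0.84, SE 0.12, adjusted p = 7.97e-05). Shroom3, an actin regulator of apical constriction, rose by 0.33 (SE 0.08, adjusted p = 0.00351). Both were chosen after their values were seen. For the gene groups below, 8.43% of the genes under 20 kb and 51.3% of the genes of 100 kb or more were lower, and 21.9% and 6.4% were higher. These shares depend on level: at 100 CPM or more, 29.6% of the genes under 20 kb and 85.3% of the genes of 100 kb or more were lower.

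Genes of the p53 pathway rose as a group. Of 14 tested genes around p53 itself and its feedback loops, 12 were higher and 1 lower, with a median log2 fold change of 0.69. Mdm2, the ubiquitin ligase that degrades p53, read 222, 263 and 297 CPM against 121, 109 and 89.5 CPM (1.29, SE 0.11, adjusted p = 7.55e-07). Ccng1, cyclin G1, read 562, 592 and 659 CPM against 299, 309 and 212 CPM (1.14, SE 0.10). Pidd1, a scaffold for caspase-2 activation, and Trp53inp1, a p53 cofactor, rose by 1.29 and 1.46. The lower gene was Cop1, another p53 ligase, at −0.48, and it spans more than 100 kb. Trp53 mRNA was not called, at 347, 351 and 358 CPM against 364, 359 and 404 CPM (−0.09, SE 0.05, adjusted p = 0.164).

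Of 14 tested cell cycle arrest targets, 11 were higher and none lower. Cdkn1a, the CDK inhibitor p21, read 66.6, 78.2 and 82.9 CPM against 30.7, 36.7 and 33.5 CPM (1.16, SE 0.09, adjusted p = 5.52e-07). Plk2, a polo-like kinase, read 113, 140 and 161 CPM against 30.3, 31.2 and 22.1 CPM (2.30, SE 0.13). Btg2, an antiproliferative partner of the CCR4-NOT deadenylase, read 114, 142 and 162 CPM against 32.6, 35.4 and 23.8 CPM (2.18, SE 0.13). In Mdm2, Ccng1, Cdkn1a, Plk2 and Btg2 the groups did not overlap, and cisplatin 8.3.3 was the lowest treated library in each. Targets in metabolism, redox control and growth signalling rose in 18 of 26 and fell in none, among them Phlda3 (1.5), Cpt1c (1.22), Ak1 (1.2) and Ddit4, an mTORC1 inhibitor (1.84). The p53 lists were compiled with earlier results of these libraries known, so their direction is not independent evidence.

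Promoter letters are shown for a pair of these genes because p53 binds DNA through a well known motif of purines, a central core and pyrimidines. Sequences are from RefSeq on GRCm38.p6, and the 250 bases before each start were searched on both strands. The motif, searched as the p53 decamer, was found in 7.13% of all 32851 promoters in the table and in 5 of 22 promoters of the metabolism and growth signalling targets (22.7%), and all 5 of those genes were higher, as were 12 of the 17 without a match. In the cell cycle arrest list 2 of 13 promoters held it (15.4%), those of Cdkn1a and Gadd45a, both higher, as were 9 of the 11 without a match, and over promoters of all tested genes 7.25% did. For the feedback list 11 of 14 genes had an entry, under 80%, so no share is given. The 150 bases below are 5′ to 3′ on the gene's strand, with the decamer in capitals, from chr10:117710805-117710954 for Mdm2 and chr11:40755332-40755481 for Ccng1, both on the minus strand.
Mdm2: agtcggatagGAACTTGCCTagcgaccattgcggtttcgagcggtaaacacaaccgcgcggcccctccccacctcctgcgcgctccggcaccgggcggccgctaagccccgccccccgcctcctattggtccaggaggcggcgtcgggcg
Ccng1: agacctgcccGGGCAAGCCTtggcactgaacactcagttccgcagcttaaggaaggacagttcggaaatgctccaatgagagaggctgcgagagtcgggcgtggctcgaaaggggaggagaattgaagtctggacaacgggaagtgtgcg
The decamer begins 186 bases before the annotated start in Mdm2 and 185 before it in Ccng1. A match is a description of letters, not of binding.

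Genes that carry out apoptosis rose on the activating side. Of 11 tested effectors and BH3-only members of the BCL2 family, 7 were higher and none lower, led by Bbc3 (PUMA) at 40.5, 50.3 and 53 CPM against 22.0, 22.0 and 15.5 CPM (1.27, SE 0.13, adjusted p = 4.26e-06). Pmaip1 (NOXA) rose by 0.98, and Bid and Bcl2l11 (BIM) by 0.34 and 0.35. None of the 4 tested anti-apoptotic members was called. Of 25 death receptors, caspases and inhibitors, 8 were higher and 2 lower. Apaf1, the apoptosome core, rose from a mean of 57.7 to 116 CPM (1.02, SE 0.09, adjusted p = 1.54e-06). Tnfrsf10b, the TRAIL receptor, rose by 0.76, while the inhibitors Birc6 (−0.57) and Birc5 (−0.19) were the lower ones.

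Components of antigen presentation on MHC class I rose from low levels. Tap1, a subunit of the peptide transporter, read 19.2, 27.6 and 31.8 CPM against 4.58, 5.16 and 3.14 CPM (2.59, SE 0.20, adjusted p = 5.78e-07). Nlrc5, the transactivator of class I genes, read 3.90, 2.90 and 4.78 CPM against 0.437, 1.12 and 0.578 CPM (2.32, SE 0.33, adjusted p = 7.49e-05). Tap2 (1.33), the immunoproteasome subunit gene Psmb9 (1.12) and B2m, the class I light chain (0.53), made up the rest of the 5 called of 18 tested, with none lower. The share of 27.8% higher stands beside 18.0% for all genes. Of 19 interferon response genes 3 were called higher and none lower, Mavs at 0.31, Zbp1 at 0.79 and Ifitm2 at 0.15, and the calls of Zbp1 and Ifitm2 were each lost in 4 of the 6 fits that left out 1 library. In the NF-κB pathway 7 of 22 rose and 1 fell. Map3k14, the NIK kinase of the non-canonical branch, rose by 1.39 and its substrate Nfkb2 by 0.60, Rela rose by 0.43, and Bcl3 fell by 0.63.

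Immediate early and ERK-dependent genes were split. Fosl1, an AP-1 subunit, read 7, 7.61 and 10.5 CPM against 1.64, 1.05 and 0.743 CPM (2.90, SE 0.26, adjusted p = 1.66e-06). Fos rose by 1.44 and Nr4a1 by 0.66, within 8 higher of 27 immediate early genes. The 5 lower ones were Klf4 (−0.49), Mycn (−0.40), Klf6 (−0.32), Klf2 (−0.25) and Myc (−0.24). Of 20 ERK feedback genes 6 fell, among them Etv1 (−0.83), Spred2 (−0.59), Spry2 (−0.52), Etv5 (−0.41) and Spry4 (−0.40). The 5 that rose were all dual-specificity phosphatases: Dusp2 (1.10), Dusp10 (0.73), Dusp7, Dusp14 and Dusp1 (0.36), and the count was 2 with DESeq2 and 3 without control 8.5.16.

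In the Wnt pathway, ligands and transducers were counted as separate lists, and the difference between them was not tested. Wnt ligands and Frizzled family receptors were higher in 12 and lower in 4 of 26, with a median of 0.36. Wnt6 read 3.90, 3.84 and 4.30 CPM against 1.09, 0.558 and 0.496 CPM (2.54, SE 0.28), and Wnt3 rose by 2.23, both from near 1 CPM. The 4 lower were Fzd5 (−0.60), Lrp5, Lrp6 and Fzd7. Of 24 Wnt transducers and targets, 3 were higher (1 without control 8.5.16, cisplatin 8.4.3 or cisplatin 8.5.3) and 9 lower, including Lef1 (−1.21), Tcf7l1 (−0.79) and Axin2, a negative feedback target (−0.72). Lef1 and Tcf7l1 span more than 100 kb, and of 6 list members of that length 5 were lower.

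Notch pathway genes rose in 9 and fell in 4 of 26, with 2 lower without cisplatin 8.4.3 or control 8.4.16. Notch3, a receptor, read 149, 178 and 201 CPM against 78.9, 84.6 and 70.1 CPM (1.17, SE 0.10, adjusted p = 7.4e-07). The ligand gene Jag2 rose by 1.11, the HES family gene Hes6 by 1.01 and Notch1 by 0.61. Rbpj, the DNA-binding partner of the Notch intracellular domain, fell to 404, 404 and 359 CPM from 622, 604 and 552 CPM (−0.61, SE 0.06, adjusted p = 2.4e-06), and Notch2 fell by 0.44. Both span more than 100 kb.

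In the Hedgehog, Hippo and PI3K lists more members were lower than higher. The shares lower were 26.7%, 35.7% and 45.5%, beside 19.2% of all genes. Of members of 100 kb or more, 2 of 2 Hedgehog, 4 of 9 Hippo and 5 of 7 PI3K genes were lower. Of those under 20 kb, 0 of 4, 1 of 8 and 1 of 8 were. Among the genes named below, Gli2, Gli3, Stk3, Rptor, Mtor, Igf1r and Epha4 span more than 100 kb. Gli2, the main activator of Hedgehog targets, read 43.4, 44.0 and 34.9 CPM against 113, 111 and 115 CPM (−1.46, SE 0.08, adjusted p = 7.37e-08). Gli3 (−0.84), the receptor and target Ptch1 (−0.70) and Sufu (−0.33) were the other 3 lower of 15 Hedgehog genes. The 2 higher were Scube2 and Dhh, both under 1 CPM in the controls. The call of Dhh was lost in 4 of the 6 fits that left out 1 library. In the Hippo pathway 10 of 28 fell, with Tead1, the partner of YAP, at −0.94, Stk3 at −0.94 and Yap1 at −0.33, and 4 rose, led by Ptpn14 at 0.92. In the PI3K, AKT and mTOR pathway 15 of 33 fell, among them Rptor (−0.87), Mtor (−0.32) and Rictor (−0.34), and 4 rose, led by the phosphatase gene Inpp5d (0.54). Receptors were mixed. Receptor tyrosine kinases and ERBB ligands had 5 higher and 7 lower of 20, and 3 were higher without cisplatin 8.4.3 or control 8.5.16. Igf1r fell by 1.00 and Kit by 0.88. Ephrins and Eph receptors had 6 higher and 2 lower of 17, with a median of 0.29 and Epha4 at −1.12, and 4 were lower without control 8.6.16 and 1 without cisplatin 8.5.3. FGF ligands and receptors had 3 higher and 2 lower of 15. Of TGF-β and BMP transducers 10 of 36 fell (27.8%) and 3 rose (8.3%), with 6 lower when control 8.4.16 was left out.

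Lif, the cytokine that sustains mouse ES cells, read 11.4, 14.3 and 15.0 CPM against 4.26, 6.00 and 2.97 CPM (1.59, SE 0.20, adjusted p = 3.24e-05). The groups did not overlap. Its receptor genes Lifr and Il6st fell by 0.40 and 0.31, and the feedback gene Socs3 by 0.33, so the pathway list stood at 6 higher and 6 lower of 20.

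**Figure D4:**
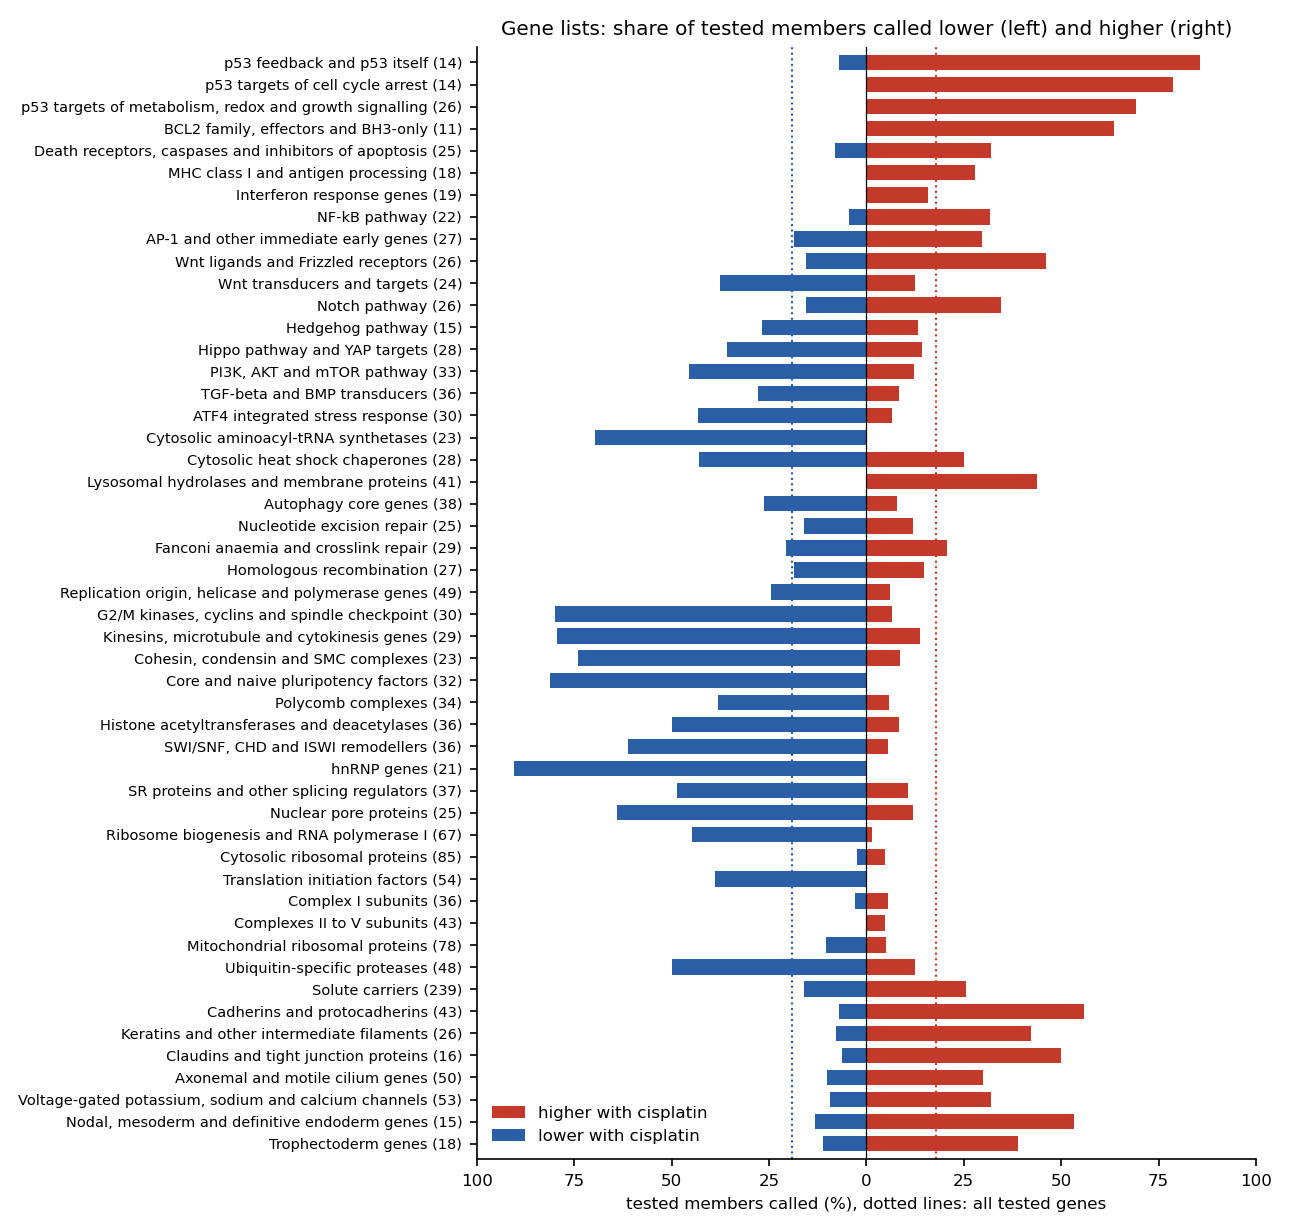
Percent of tested members called lower (blue, left) and higher (red, right) in selected gene lists, with the number of tested members in parentheses and dotted lines at 18.0% higher and 19.2% lower for all tested genes. Bars of the p53 lists reach furthest to the right and those of hnRNP genes, pluripotency factors and mitotic genes furthest to the left.

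Atf4 and part of the amino acid stress programme fell. Atf4, the transcription factor of the integrated stress response, read 93.1, 81.8 and 78.1 CPM against 151, 163 and 170 CPM (−0.93, SE 0.07, adjusted p = 4.07e-07). Chac1, a glutathione-degrading ATF4 target, read 3.66, 3.40 and 4.10 CPM against 11.6, 12.8 and 12.9 CPM (−1.75, SE 0.15, adjusted p = 8.61e-07). Of 30 tested genes of this response, 13 were lower and 2 higher, with a median of −0.22. Slc7a1, Slc7a5 and Mthfd2 fell by 0.59, 0.43 and 0.69, and the 2 higher were Sesn2 (0.55), which is also a p53 target, and Cebpb (0.68). With upper quartile scaling 8 members were lower. Of 17 members under 20 kb, 10 were lower, beside 8.43% of all genes of that length and 29.6% of those at 100 CPM or more. Of the 30 members 11 were at 100 CPM or more, 7 of them lower.

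Cytosolic aminoacyl-tRNA synthetases, which charge tRNAs and many of which are ATF4 targets, were lower in 16 of 23 and higher in none. Yars read 155, 156 and 147 CPM against 210, 215 and 206 CPM (−0.46, SE 0.05, adjusted p = 6.24e-06), and Aars, Nars, Tars and Iars fell by 0.45, 0.36, 0.38 and 0.33. None of the 23 spans 100 kb. The letters TGATGNAA, the core of the composite element that ATF4 binds, were present in 3.45% of all promoters in the table, in 2.41% of those of tested genes and in 5 of 27 promoters of the ATF4 list (18.5%). Of those 5 genes 2 were lower, against 9 of 22 without a match. The promoter of Chac1 is shown as the member with the largest fall, with the match on the minus strand in capitals, at chr2:119351039-119351188 (plus strand, GRCm38.p6).
Chac1: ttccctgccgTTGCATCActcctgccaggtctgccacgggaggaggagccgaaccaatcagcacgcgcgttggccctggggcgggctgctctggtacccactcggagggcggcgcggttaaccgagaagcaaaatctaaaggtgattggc
The match begins 193 bases before the annotated start.

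Chaperone genes split by kind. The inducible Hsp70 genes Hspa1a and Hspa1b rose, Hspa1a to 50.2, 41.9 and 39.4 CPM from 23.7, 20 and 17.3 CPM (1.12, SE 0.11, adjusted p = 4.61e-06) and Hspa1b by 0.99. These 2 genes are near-identical copies, so their counts are uncertain as single genes. Cryab, a small heat shock protein, rose by 1.05. Constitutive chaperones fell slightly from very high levels: Hspa8 by 0.18 (adjusted p = 0.00106) and Hsp90ab1 by 0.20. Hsp90aa1 was called at −0.13, a call lost without cisplatin 8.4.3 or control 8.4.16. In all, 7 of 28 cytosolic chaperone genes were higher and 12 lower. In the endoplasmic reticulum list 2 of 24 rose (5 without control 8.6.16) and 5 fell (3 without cisplatin 8.4.3 or 8.5.3), with Atf6 at −0.64 and Herpud1 at −0.78.

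Part of the lysosomal genes rose. Of 41 tested hydrolases and membrane proteins 18 were higher and none lower. Man2b1, the lysosomal alpha-mannosidase, read 77.1, 94.1 and 92.6 CPM against 38.8, 34.4 and 42.4 CPM (1.19, SE 0.09, adjusted p = 5.11e-07). Gaa, acid alpha-glucosidase, rose by 0.94, Fuca1 by 0.66, and Ctsd and Tpp1 by 0.42 each. Without cisplatin 8.5.3, 10 members were higher. Core autophagy genes had 3 higher and 10 lower of 38 (26.3% lower, beside 19.2% of all genes), and 5 were lower when control 8.5.16 was left out. Ambra1 and Uvrag, at −0.79 each, span 188.7 and 254.4 kb, and 4 of the 5 members of 100 kb or more were lower. Tfeb, the transcription factor of lysosomal genes, fell by 0.64.

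For the drug itself, transport and detoxification genes were examined. Abcb1b, a P-glycoprotein efflux pump, read 74.4, 74.4 and 84.9 CPM against 29.5, 33.1 and 30.5 CPM (1.32, SE 0.08, adjusted p = 1.03e-07), and Abcb1a rose by 0.53. Lrrc8d, a subunit of the volume-regulated anion channel through which cisplatin can enter cells, read 36.8, 40.3 and 36.6 CPM against 74.0, 81.4 and 73.7 CPM (−1.01, SE 0.07, adjusted p = 2.53e-07). It spans 132.5 kb. The copper chaperone Atox1 rose by 0.42, Slc31a2 by 0.65, and Abcg2 fell by 0.34, within 6 higher and 2 lower of 14 genes. Among NRF2, glutathione and metallothionein genes 6 of 29 rose (20.7%, beside 18.0% of all genes), with Hmox1 at 0.64. In this list 3 fell (10.3%, beside 19.2%), with the exporters Abcc4 at −0.86 and Abcc1 at −0.36.

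DNA repair genes moved both ways. Ercc5, the XPG endonuclease of nucleotide excision repair, read 76.2, 81.3 and 89.5 CPM against 36.7, 39.2 and 35.6 CPM (1.14, SE 0.07, adjusted p = 1.58e-07), in a list with 3 higher and 4 lower of 25 (7 lower without cisplatin 8.3.3). Polk, a translesion polymerase, rose by 1.09 (SE 0.10) and Rad51d, a recombination paralog, by 0.86 (SE 0.09). Fanconi anaemia genes had 6 higher, led by Slx4 (0.39) and Faap100 (0.44), and 6 lower, with Fancc at −0.66, of 29. Without cisplatin 8.4.3 or 8.5.3, or with upper quartile scaling, 3 Fanconi members were lower. Translesion genes had 2 higher and 6 lower of 17, with 3 lower without cisplatin 8.5.3 or control 8.4.16. In end joining 2 of 16 rose and 5 fell, with 3 lower when cisplatin 8.4.3, cisplatin 8.5.3, control 8.4.16 or control 8.5.16 was left out. Rif1 fell from 707 to 466 CPM (−0.60), Prkdc by 0.56 and Xrcc4 by 1.05, and Poll rose by 0.44. Prkdc, Xrcc4 and Fancc span 204.4, 315.6 and 192.6 kb. Of members of 100 kb or more, 3 of 3 Fanconi genes and 2 of 2 end joining genes were lower, beside 51.3% of all genes of that length. Of checkpoint kinases and mediators 8 of 22 fell (36.4%, beside 19.2% of all genes), with Atm at −0.34 and Atr at −0.28, and Rad1 alone rose, by 0.21. No member of this list was under 20 CPM. At 100 CPM or more 4 of 9 members fell, beside 45.5% of all tested genes at 100 to 500 CPM.

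At the G1 stage 8 of 29 genes rose (27.6%) and 6 fell (20.7%), beside 18.0% and 19.2% of all genes. The count lower was 3 when cisplatin 8.5.3 or control 8.4.16 was left out or with upper quartile scaling, and 11 with a replicate block. The treatment effect of the block fit does not draw on cisplatin 8.3.3 or control 8.6.16. Besides Cdkn1a, the pocket protein genes Rbl2 (1.18, SE 0.13) and Rb1 (0.78, SE 0.13) rose. Cdk6 fell to 12.9, 13.9 and 10.8 CPM from 26.5, 28.2 and 26.4 CPM (−1.10, SE 0.10, adjusted p = 2.44e-06), and E2f3 fell by 0.44. Of 49 replication genes 12 were lower (24.5%) and 3 higher (6.1%), with Dbf4 at −0.61 and Pola1 at −0.66. The count higher was 5 without control 8.6.16, 1 without cisplatin 8.3.3 and none when any other library was left out. At 100 CPM or more 9 of 26 replication genes were lower, beside 45.5% of all tested genes at 100 to 500 CPM.

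Mitotic genes fell broadly. Of 30 G2/M kinases, cyclins and checkpoint genes 24 were lower and 2 higher (Pkmyt1 and Aurkb), with a median of −0.35. Plk1 read 109, 114 and 114 CPM against 206, 207 and 192 CPM (−0.85, SE 0.05, adjusted p = 1.26e-07). Of 21 members under 20 kb, 16 were lower. Kinesin and cytokinesis genes were lower in 23 of 29, with Ect2 at −0.77 and Mki67 at −0.57, and 4 rose: Kif18b (0.53), Ckap2 (0.51), which is also in the p53 list, Kifc1 and Spc25. Cohesin, condensin and SMC genes were lower in 17 and higher in 2 of 23, with Stag1 at −0.92 and Rad21 at −0.51.

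Late cell cycle genes are known for a CHR element, TTTGAA, often found with CCAAT boxes, and 3 promoters of the kinesin and cytokinesis list are shown for that reason. On both strands TTTGAA was found in 16% of all promoters in the table and in 11 of 26 of this list (42.3%), and CCAAT in 33.8% and 61.5%. Over promoters of the tested genes TTTGAA was in 12.6% and CCAAT in 41.4%. Of the 11 genes with TTTGAA, 9 were lower and 1 higher, against 12 and 3 of the 15 without it. Capitals mark both motifs and their reverse complements in 150 bases from chr11:99024277-99024426 (Top2a, minus strand), chr19:37376232-37376381 (Kif11, plus strand) and chr7:135716428-135716577 (Mki67, minus strand), GRCm38.p6.
Top2a: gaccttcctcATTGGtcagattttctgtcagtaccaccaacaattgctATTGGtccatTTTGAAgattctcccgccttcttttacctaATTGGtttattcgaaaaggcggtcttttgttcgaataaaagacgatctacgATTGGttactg
Kif11: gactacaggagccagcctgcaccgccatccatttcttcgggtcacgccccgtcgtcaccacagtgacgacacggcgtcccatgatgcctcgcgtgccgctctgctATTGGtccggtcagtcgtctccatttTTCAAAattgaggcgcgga
Mki67: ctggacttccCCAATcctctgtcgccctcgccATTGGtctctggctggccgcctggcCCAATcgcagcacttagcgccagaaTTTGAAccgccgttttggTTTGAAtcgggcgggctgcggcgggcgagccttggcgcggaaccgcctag
Kif11 fell by 0.49 and Top2a by 0.32 on the log2 scale. In these windows Kif11 carries 1 CHR match and 1 CCAAT box, Top2a 1 CHR match and 4 CCAAT boxes, and Mki67 2 CHR matches and 3 CCAAT boxes.

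Most genes of ES cell identity fell, and Pou5f1 was not called. Pou5f1 (Oct4), a core factor, read 1179, 1238 and 1175 CPM against 1211, 1199 and 1184 CPM, with overlapping groups (adjusted p = 0.993). Sox2 read 311, 317 and 315 CPM against 392, 382 and 396 CPM (−0.31, SE 0.04), and Nanog 216, 205 and 192 CPM against 270, 249 and 280 CPM (−0.38, SE 0.06). Of 32 core and naive pluripotency genes 26 were lower and none higher, and of 26 under 20 kb 21 were lower. Zfp42 (Rex1) fell by 0.70 and Esrrb by 0.61. The 10 ES cell markers used to check the cells were present in every library, from a mean of 235 CPM for Nanog to 1198 CPM for Pou5f1, and 8 were lower.

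Differentiation markers moved both ways, depending on the list. Of 15 tested genes of Nodal signalling, mesoderm and definitive endoderm 8 rose and 2 fell, and another 4 in the table did not pass the filter. The count higher was 5 with DESeq2 and 5 without control 8.4.16. Nodal read 93.5, 107 and 118 CPM against 59.5, 60.2 and 57.6 CPM (0.84, SE 0.08, adjusted p = 2.15e-06), and Lefty1, its feedback inhibitor, rose by 0.63, while the coreceptor gene Tdgf1 (−0.28) and Gdf3 (−0.25) fell. Trophectoderm genes had 7 higher and 2 lower of 18, with Dlx3 at 2.26 from 0.536 CPM and Ascl2 at 1.01, and 4 were higher when cisplatin 8.4.3 was left out. Primitive and parietal endoderm genes had 3 higher (Hnf4a, Fst and Sparc) and 3 lower (Lama1, Lrp2 and Lamc1) of 16, with a median of −0.16. Primed epiblast and early neural genes had 1 higher and 6 lower of 15, with Ncam1 (−0.78), Zic2 (−0.63), Zic5 (−0.60) and Pax6 (−0.59). Feeder fibroblast markers showed 3 higher (Mmp2, Timp3 and Mmp14, by 0.57, 0.46 and 0.30) and 1 lower (Fn1, −0.42) of 18, with a median of 0.04, the call of Mmp14 was lost without cisplatin 8.4.3, and 6 markers were higher without cisplatin 8.3.3. Their summed level was 134 to 227 CPM with cisplatin and 146 to 187 CPM in the controls without Fn1, which ES cells also express. Their part in the changes of other genes was not tested.

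In each family of chromatin regulators described here more members fell than rose. Among all tested genes 45.5% were lower and 6.03% higher at 100 to 500 CPM, and 49.4% and 1.51% at 500 CPM or more. At 100 CPM or more, 11 of 15 polycomb genes, 18 of 21 remodellers and 8 of 14 SET domain methyltransferases were lower. At that level 12 of 17 acetyltransferases and deacetylases and 9 of 10 demethylases were lower. The part of level in these counts was not tested. Jarid2, a PRC2 partner, read 366, 345 and 309 CPM against 678, 689 and 649 CPM (−0.98, SE 0.06, adjusted p = 1.03e-07), in a polycomb list with 2 higher and 13 lower of 34. Ezh2, Suz12, Mtf2 and Rybp fell by 0.51, 0.40, 0.52 and 0.54. Of 36 remodeller subunits of the SWI/SNF, CHD and ISWI families 22 were lower and 2 higher. Arid1b, a BAF subunit, read 21.0, 26.4 and 20.7 CPM against 61.2, 64.3 and 54.9 CPM (−1.4, SE 0.10, adjusted p = 2.29e-07), and Arid1a fell by 0.55. Of the remodeller genes, 10 of 12 of 100 kb or more were lower, against 2 of 5 under 20 kb. Among SET domain methyltransferases 14 of 31 were lower, 6 of 8 long members and 0 of 7 short ones, with Kmt2c at −1.06. Histone acetyltransferases and deacetylases had 18 lower of 36, 7 of 8 long members and 1 of 11 short ones, with Kat6b at −0.96 and Ncor1 at −0.71. Histone demethylases had 12 lower of 24. Chd5, a neural remodeller, was among the few that rose (0.90).

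Histone genes themselves were lower in 24 of 74, with a median of −0.30. Without control 8.6.16 the count was 42, and with a replicate block 48. Replication-dependent histone mRNAs end without a poly(A) tail and are captured incompletely by this kit. Polyadenylated replacement histones were among the lower ones, with H1f0 at 23.5, 26 and 25.5 CPM against 57.0, 51.4 and 46.6 CPM (−1.04, SE 0.09, adjusted p = 8.23e-07), H2az1 at −0.33 and H3f3b at −0.31. Many histone genes are near-identical copies and are uncertain singly.

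Among genes of RNA binding proteins the share that fell differed by list, beside 19.2% of all tested genes. It was 90.5% of hnRNP genes, 48.6% of splicing regulators, 64.0% of nuclear pore genes and 52.6% of the microRNA pathway. Of 21 hnRNP genes, which package and splice pre-mRNA, 19 were lower and none higher, including 11 of 13 under 20 kb. Hnrnpu read 1118, 1021 and 1033 CPM against 1403, 1446 and 1472 CPM (−0.45, SE 0.04, adjusted p = 3.21e-06), and Hnrnpr fell by 0.56, Hnrnpd by 0.47, Syncrip by 0.44 and Hnrnpf by 0.31. SR proteins and other splicing regulators had 18 lower and 4 higher of 37, with Qk at −0.76 and Srsf3 at −0.40. Nuclear pore genes had 16 lower and 3 higher of 25, with 10 lower when cisplatin 8.5.3 was left out. In the microRNA pathway 10 of 19 fell, with Lin28a at −0.51, Ago2 at −0.49 and Drosha at −0.35.

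**Figure D5:**
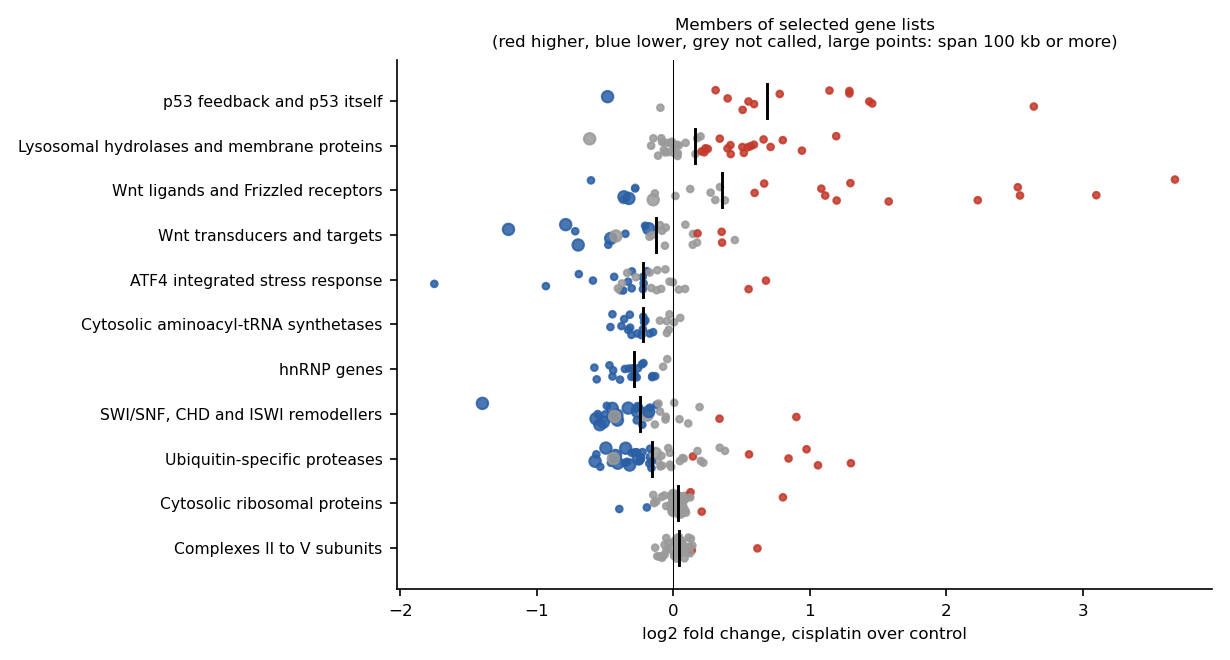
Log2 fold change (x axis) of each tested member of selected gene lists, red for higher, blue for lower, grey for not called, large points for genes of 100 kb or more, and black bars at the medians. Called members of the hnRNP and cytosolic aminoacyl-tRNA synthetase lists all lie left of 0, and none spans 100 kb, while ribosomal and respiratory chain genes lie close to 0.

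Protein synthesis genes split between factors and the ribosome. Of 67 ribosome biogenesis genes 30 were lower and 1 higher, with Ncl falling by 0.29 (SE 0.04) from 3027 to 2471 CPM, Nop56 by 0.32 and Wdr43 by 0.45. Translation initiation factors were lower in 21 of 54 and higher in none, with Eif4e at −0.41 and Eif4a2 at −0.48. With upper quartile scaling 9 of these were lower, and the count was 10 when cisplatin 8.5.3 was left out and 13 when cisplatin 8.4.3 was. At 100 CPM or more, 26 of 48 biogenesis genes and 20 of 39 initiation factors were lower. Among all tested genes the share lower was close to this, 45.5% at 100 to 500 CPM and 49.4% at 500 CPM or more. Cytosolic ribosomal protein genes were close to 0 in log2 change, with a median of 0.04. Of 85, 4 were higher and 2 lower, and with upper quartile scaling, which moved the median log2 change of all genes from 0.014 to 0.069, 25 were higher. The count higher was 1 when control 8.4.16, cisplatin 8.3.3 or cisplatin 8.4.3 was left out, 2 when cisplatin 8.5.3 was, and 1 with DESeq2. The higher ones were Rpl3l (0.80), the p53 target Rps27l (0.21), Rps21 and Rpl10a, and the lower ones Rpl39l (−0.40) and Rpl7l1. Respiratory chain subunits had 2 higher and 1 lower of 36 in complex I and 2 higher and none lower of 43 in complexes II to V, and with upper quartile scaling 6 and 7 were higher. No complex I gene was higher without cisplatin 8.5.3 or control 8.6.16, and 1 was without control 8.4.16. Mitochondrial ribosomal proteins had 4 higher and 8 lower of 78, with 3 lower under upper quartile scaling or without cisplatin 8.5.3, 9 higher without control 8.6.16, and 2 higher when any library but this one and cisplatin 8.3.3 was left out. Of the cytosolic ones, 81 of the 83 genes with a position span under 20 kb.

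Genes of the ubiquitin pathway included some of the largest falls in CPM. Ubiquitin-specific proteases were lower in 24 and higher in 6 of 48, with Usp9x at −0.57, and the ligase gene Trip12 (−0.61) was among the 12 largest losses in CPM. Of the proteases, 7 of 9 of 100 kb or more were lower, against 2 of 8 under 20 kb, and Trip12 spans 118.1 kb. Tripartite motif genes had 15 higher and 10 lower of 46, with 6 lower when cisplatin 8.4.3 was left out. Trim28, the KAP1 corepressor, fell to 2145, 1961 and 1891 CPM from 2398, 2431 and 2956 CPM (−0.38, SE 0.07, adjusted p = 0.000649).

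Among metabolic genes, Hk2, a hexokinase, fell by 0.80 (SE 0.06), and the glucose transporter genes Slc2a3 and Slc2a1 by 0.40 and 0.25, while most of the 26 glycolysis genes were not called. Purine metabolism had 9 higher and 6 lower of 24, and the higher ones included the degrading enzymes Ada (1.10), Ampd3 (1.01) and Ampd2 (0.57). Smox, spermine oxidase, rose by 1.27 and Cbs by 0.80, the 2 higher genes in a one-carbon and polyamine list with 13 lower of 33. Cad, the enzyme that starts pyrimidine synthesis, read 598, 674 and 688 CPM against 516, 524 and 519 CPM (0.33, SE 0.05, adjusted p = 0.000182). Txnip, an arrestin that restrains glucose uptake, read 429, 511 and 589 CPM against 371, 411 and 265 CPM (0.54, SE 0.13, adjusted p = 0.00411). Solute carriers had 61 higher and 38 lower of 239, with Slc25a42, a mitochondrial coenzyme A carrier, at 1.47.

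Epithelial junction and keratin genes rose more often than they fell. Among all tested genes 23.8% were higher and 3.89% lower at 1 to 5 CPM, and 24.3% and 8.11% at 5 to 20 CPM. Under 20 CPM, 5 of 9 claudin and tight junction genes and 8 of 15 intermediate filament genes were higher, and none lower. At 100 CPM or more, 0 of 2 and 1 of 4 were higher, and 1 and 2 lower. The part of level in these counts was not tested. Claudins and tight junction genes were higher in 8 and lower in 1 of 16, with Cldn6 at 0.79 and Cldn4 at 0.68. Keratins and other intermediate filaments were higher in 11 of 26, with Krt5, a basal keratin, at 14, 16 and 12 counts against 1, 2 and 1 counts, and Lmnb1 (−0.46) and Vim (−0.21) lower. Integrin β4, Itgb4, rose by 1.22, and Itgb2, the leukocyte integrin β2, went from 1, 0 and 1 counts to 40, 50 and 37 counts, a ratio of 66.0 with an exact 95% interval of 17.9 to 551 that covers counting error only. Cadherins and protocadherins were higher in 24 of 43 and lower in 3, Cdh1, Cdh2 and Cdh4. Of the higher ones 21 were protocadherin gamma rows, which share constant exons, so their calls are not separate genes. Fat2 rose by 1.30.

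Genes of specialised cells also rose from low levels. Among axonemal and motile cilium genes 15 of 50 were higher and 5 lower, and 4 in the table did not pass the filter. Foxj1, the master factor of motile cilia, read 7, 10.2 and 10.4 CPM against 1.64, 1.53 and 0.991 CPM (2.73, SE 0.24, adjusted p = 1.16e-06), and Dnaic1, a dynein chain, rose by 2.56. The factor Rfx3 fell by 0.77 and Rfx2 by 0.37. Intraflagellar transport and BBSome genes had 3 higher and 3 lower of 29. Voltage-gated channels were higher in 17 and lower in 5 of 53, with 16 more not tested. The sodium channel β subunit gene Scn3b read 10.5, 12.2 and 12.9 CPM against 2.18, 2.72 and 1.82 CPM (2.38, SE 0.18, adjusted p = 4.87e-07). Of 23 transmitter receptor genes 8 rose, with Chrnb4, a nicotinic subunit, at 2.73, and 3 fell. Among all tested genes with a mean of 1 to 5 CPM the share higher was 23.8%.

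Axon guidance and synaptic genes moved both ways. Semaphorins, plexins, netrins, Slits and Robos had 9 higher and 8 lower of 39, and all 8 lower ones span 100 kb or more. Without cisplatin 8.4.3, 5 were higher. Ntn1 fell by 1.30, Robo1 by 0.64 and Plxna2 by 0.83, while Plxnb2, which spans 25.2 kb, rose by 0.81. Synaptic adhesion and scaffold genes, with a median span of 103.8 kb, were lower in 8 and higher in 6 of 22, with Tenm3 at −1.09, Magi1 at −1.01 and Dlg1 at −0.66, and 3 were higher when control 8.5.16 was left out.

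Among other classes, the clock genes Tef (1.46), Per3 (0.62), Nr1d1 and Per1 rose while Clock (−0.40), Cry1 (−0.36) and Nr1d2 fell, within 18 genes. Of all tested genes 18.0% were higher and 19.2% lower, for comparison with the shares that follow. Imprinted genes had 7 higher (16.3%) and 11 lower (25.6%) of 43, with the non-coding Mirg at −1.14 and Cd81 at 0.63. Germ cell genes had 6 higher (17.1%) and 4 lower (11.4%) of 35, with Tex15 at 1.06. In this list 1 or 2 were lower when any library but control 8.6.16 was left out. Genes of the 2-cell-like state had 2 lower and none higher of 20, and 8 lower when cisplatin 8.4.3 was left out. Zinc finger genes named Zfp had 45 higher and 53 lower of 347, with 26 higher under DESeq2 and 28 or 27 without cisplatin 8.4.3 or 8.5.3. Of 599 non-coding RefSeq transcripts 8.85% were higher and 9.68% lower, beside 18.4% and 19.6% of 13484 coding ones, and the difference was not tested.

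Some calls named above rested on single libraries. Besides the genes for which this is stated, calls were lost when 1 library was left out in 5 of the 6 such fits for Rps21, in 4 of the 6 such fits for Aurkb, Dusp14, Rad1, Rpl10a, Rpl3l and Sufu, in 3 of the 6 such fits for Cdh4, Cebpb, Pkmyt1 and Spc25, in 2 of the 6 such fits for Myc and in 1 of the 6 such fits for Birc5, Cdh2, Dusp10, Gdf3 and Kifc1.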

How the data were processed

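Poly(A) mRNA libraries of 3 cisplatin-treated and 3 DMSO-treated ES cell samples were compared. The deposited tables hold raw read counts per feature and library, made by the authors with Bowtie and TopHat on mm9 per the submitters' processing notes, which also name edgeR. No tool version or counting setting is given in the sources used here. Of 58821 features, the 18943 RefSeq rows were used, 18274 matched a gene symbol in RefSeq (GRCm38.p6), and the row with the highest mean CPM was kept per gene, leaving 14797 genes. Every column of per-sample values matched a sample.

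Counts were filtered with filterByExpr, scaled by TMM and tested with edgeR 4.0.16's quasi-likelihood test in R 4.3.3 on the 6 libraries alone, with Benjamini-Hochberg adjustment over 14083 genes and a threshold of 0.05. CPM values use the TMM library sizes. Genomic positions and spans come from GENCODE vM1 (mm9) and cover 13080 tested genes. Promoters come from RefSeq (GRCm38.p6) and cover 10650 tested genes. The tested counts per library ranged from 9502862 to 14821702. On simulated counts of this comparison (13691 genes) the test recovered 74.2%, 90.9% and 100% of changes of 0.5, 1 and 2 on the log2 scale, with 22 false calls. These changes were set in 66, 66 and 65 genes with a mean of at least 1 CPM, in both directions. Recovery under 1 CPM, or where many genes change and direction follows level, was not tested there.

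The members and the 112 gene lists were chosen with earlier results of these data known. The genes named are up to 5 called members per list with the smallest adjusted p, members that account for a count of 5 or fewer, the 15 largest log2 changes each way with a mean of at least 10 CPM and no overlap, the 12 largest CPM changes each way, and Hprt, Cdkn1a, Mdm2, Ccng1, Pou5f1, Sox2 and Nanog. Any other gene named in the text was chosen after its values were seen. Alternatives were RLE and upper quartile scaling, DESeq2 1.42.0, limma-voom (limma 3.58.1), other filters, the abundance table, summed rows, glmTreat, a replicate block and leaving out each library. A few items are not reported here.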

Additional observations from a re-analysis of the deposited data

How the results depend on the processing

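The counts of 2536 higher and 2700 lower genes stayed within 1.5 times under RLE scaling, upper quartile scaling, DESeq2 (1877 and 2391), limma-voom, both other filters, the abundance table and summed rows, and no gene called in both fits changed sign. Against a minimum fold of 1.5, 515 genes were higher and 138 lower, as that test asks for a larger change. Leaving out 1 library gave 1917 to 2504 higher and 2070 to 2775 lower genes. The median log2 fold change of genes of 200 kb or more was −0.54, between −0.48 and −0.55 under other scalings, tools, filters and tables, and −0.47 to −0.59 when 1 library was left out. It was −0.61 with the replicate block, and −0.62 and −0.48 in genes above and below the median level, and the cause was not tested. Of 574 genes examined one by one that were called, 547 to 565 kept their call without 1 library, 548 with DESeq2, 561 with upper quartile scaling and 160 against the minimum fold. Same-numbered libraries (8.4 and 8.5) had correlated deviations of 0.22 and 0.25, but cisplatin 8.3.3 and control 8.6.16, which share no number, had 0.29. Only 2 pairs share a number, its meaning is not given, and a replicate block on it gave 3090 higher and 3311 lower genes, of which 5004 were called without it. In the block fit cisplatin 8.3.3 and control 8.6.16 were each alone in a block. Its treatment effect, and so its −0.61 for long genes, therefore rested on the 2 pairs only. Folds of genes with a few counts have wide counting intervals, as for Itgb2 (17.9 to 551).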
